A study of Mus musculus with 9 samples.

Results

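The comparison described here set astrocyte cultures harvested 3 days after a hydrogen peroxide exposure against untreated cultures. The cells were primary cortical astrocytes, a glial culture from the cerebral cortex of mice at postnatal day 4, kept in medium with horse serum and FBS. Treated cultures received 200 µM hydrogen peroxide for 3 h, were washed, and were harvested 24 h (day 1) or 72 h (day 3) after washing, while control cultures were labelled only as control. The labels used here give no strain, sex or harvest time for the controls, nor whether replicates were separate cultures. Each p-value therefore rests on the variation among 3 libraries a group, part or all of which can be technical. Polyadenylated RNA was sequenced in 3 libraries per group. The members were all 12611 genes, of 25239 in the table, with a mean of at least 1 FPKM (reads scaled for gene length and library size) over the 9 libraries, and 6 libraries entered the comparison of day 3 with control.

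Hydrogen peroxide is a membrane-permeant oxidant that damages DNA, lipids and thiol proteins. Damaged DNA stabilises the transcription factor p53, which drives genes for cell cycle arrest and apoptosis, and arrested cells repress the genes of DNA replication and mitosis. Astrocytes support neurons by clearing glutamate and potassium, and after injury they become reactive and change their secreted proteins. Cortical cultures of this kind also hold oligodendrocyte precursors, microglia and meningeal or perivascular fibroblasts, so in bulk RNA fewer cells of a type and less RNA per cell cannot be told apart.

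Library totals worked out from the FPKM were 30278210 to 38414668 reads in control and 30545004 to 36749577 on day 3. Of 36 homeostatic astrocyte markers 33 passed the filter on low values. Gfap, an astrocyte filament protein, stood at 1480, 1470 and 1530 FPKM in control and at 1340, 1330 and 1330 FPKM on day 3. The first principal component (64.1% of variance) set day 1 apart, and the second (9.54%) separated day 3 from control. On the first, day 3 stood at -13.4 to -8.85, between control (-18.4 to -17.9) and day 1 (26.3 to 32.2). Day 3 replicate 2 differed most from the other libraries of its group, with a chi-square per degree of freedom of recovered reads of 3.75 and 4.76 against 2.31 for the other pair. Without it, 921 genes were called higher and 809 lower.

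Day 3 differed from control in many genes by small amounts. In limma with Benjamini-Hochberg adjustment, 929 genes were higher (7.37% of those tested) and 813 lower (6.45%), 13.8% in all. The shares 7.37% and 6.45% are the background for each list count of day 3 against control below. The median size among called genes was 0.24 on the log2 scale, a 1.18-fold difference. Only 4 called genes were at least 2-fold higher and 21 at least 2-fold lower. The counts fell to 534 and 491 without day 3 replicate 3, to 569 and 464 without day 3 replicate 1, and to 631 to 654 and 535 to 553 without 1 control library. For scale, day 1 against control called 62.2% of tested genes, and day 3 against day 1 called 56.2%. The FPKM as deposited, with no rescaling between libraries, gave 661 higher and 861 lower. A fit to the 6 libraries of control and day 3 alone gave 723 higher and 791 lower. The largest counts came from limma-voom on reads recovered from the FPKM, with 1319 higher and 1143 lower.

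**Figure D1:**
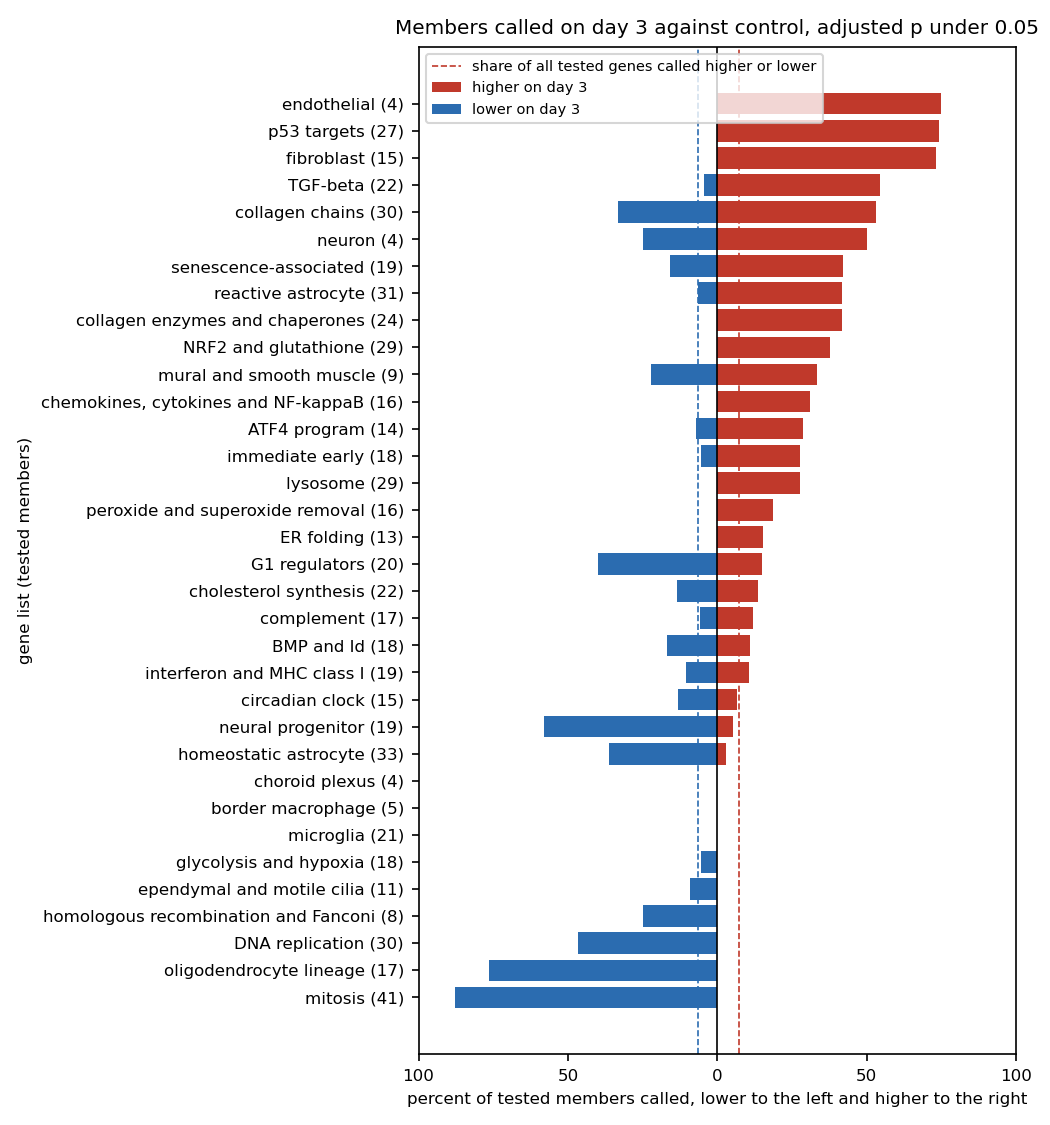
Share of tested members called lower (left) or higher (right) on day 3 for 34 gene lists, with the number of tested members in brackets and the shares of all tested genes, 7.37% higher and 6.45% lower, as dashed lines. The mitosis and oligodendrocyte lineage bars reach farthest to the left, and the endothelial (4 members), p53 and fibroblast bars farthest to the right.

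Genes of mitosis had the largest share lower on day 3 among the 34 lists. Of 41 tested members, 36 were called lower and none higher, against 6.45% lower among all tested genes, and the median log2 difference was -0.47 beside 0.01 for all genes. Cenpf, a kinetochore protein, read 2.46, 3.01 and 2.73 FPKM in control and 1.55, 1.73 and 1.56 on day 3. It was 1.63-fold lower (95% interval 1.42 to 1.87, limma adjusted p = 0.000761). All day 3 values lay below all control values. Top2a, the topoisomerase that untangles sister chromatids, read 14.2, 16.2 and 14.2 FPKM in control and 10.3, 9.65 and 9.73 on day 3, 1.48-fold lower (limma adjusted p = 9.88e-05). Mki67, the Ki-67 proliferation antigen, fell from 8.97, 10.2 and 8.80 FPKM to 6.51, 6.60 and 6.29, a 1.42-fold difference (limma adjusted p = 0.00042). Nuf2, also of the kinetochore, was 1.63-fold lower. Ect2, which positions the cleavage furrow, was 1.52-fold lower, and Melk, a mitotic kinase, 1.53-fold lower. Ube2c, the ubiquitin-conjugating enzyme of the anaphase-promoting complex, was 1.41-fold lower. Oligodendrocyte lineage markers, a list that includes dividing precursors, were lower in the same libraries (699 to 731 FPKM summed in control, 578 to 612 on day 3), and their part in this result was not tested. Ckap2, a spindle protein, did not pass, at 9.73, 11.6 and 10.0 FPKM in control and 9.78, 9.55 and 10.2 on day 3 (limma adjusted p = 0.537).

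The promoters of mitotic genes are shown because a CHR element and CCAAT boxes are known in promoters of this class. Whether either element acted here was not tested. The 250 bases before the RefSeq start (GRCm38.p6) of 4 members, chosen because they hold both and shown as examples of the 11 of 35 matched members that do, are given below, 5′ to 3′, with CHR spellings (TTTGAA or TTCGAA) and CCAAT boxes in capitals on either strand.
Ect2, chr3:27153855-27154104, minus strand: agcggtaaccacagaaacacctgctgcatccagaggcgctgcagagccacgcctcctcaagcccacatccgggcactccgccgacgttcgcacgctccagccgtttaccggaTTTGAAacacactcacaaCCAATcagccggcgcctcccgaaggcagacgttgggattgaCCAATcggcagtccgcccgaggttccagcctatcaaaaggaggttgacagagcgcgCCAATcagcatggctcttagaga
Top2a, chr11:99024190-99024439, minus strand: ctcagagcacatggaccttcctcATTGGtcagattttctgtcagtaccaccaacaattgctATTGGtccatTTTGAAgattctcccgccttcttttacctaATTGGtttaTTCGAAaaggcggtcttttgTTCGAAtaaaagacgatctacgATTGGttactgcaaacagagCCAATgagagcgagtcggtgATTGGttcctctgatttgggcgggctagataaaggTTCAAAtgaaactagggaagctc
Mki67, chr7:135716380-135716629, minus strand: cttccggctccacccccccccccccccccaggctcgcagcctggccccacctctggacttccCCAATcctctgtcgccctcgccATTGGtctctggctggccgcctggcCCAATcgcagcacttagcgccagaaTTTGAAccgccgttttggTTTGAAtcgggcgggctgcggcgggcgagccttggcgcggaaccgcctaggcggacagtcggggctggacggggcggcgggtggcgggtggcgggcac
Ube2c, chr2:164769679-164769928, plus strand: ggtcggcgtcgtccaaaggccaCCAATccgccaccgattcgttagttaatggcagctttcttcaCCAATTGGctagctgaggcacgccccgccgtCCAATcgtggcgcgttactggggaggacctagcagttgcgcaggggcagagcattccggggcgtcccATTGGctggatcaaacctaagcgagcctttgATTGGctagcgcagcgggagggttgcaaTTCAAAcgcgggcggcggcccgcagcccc
A CHR spelling occurred in 13 of 37 starts of the mitosis list (35.1%), against 17.1% of all 32851 starts in the table and 11.9% of the starts of tested genes. CCAAT occurred in 27 of these 37 starts (73.0%), against 33.8% of all and 35.3% of tested. Both occurred in 12 (32.4%), against 6.02% and 4.57%. An E2F spelling (TTTCCCGC, TTTCGCGC, TTTGCCGC or TTTGGCGC) occurred in 6 of 30 starts of the DNA replication list and 1 of 37 of the mitosis list, against 1.86% of all and 3.28% of tested. In the DNA replication list 17 starts (56.7%) held CCAAT, 5 (16.7%) held a CHR spelling and 4 held both. No spelling contains another, though matches may overlap, and a match is a description of letters and not a site. In the p53 list, 5 of 29 starts (17.2%) held a CHR spelling, 12 (41.4%) held CCAAT and none held an E2F spelling.

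DNA replication genes were lower by less. Of 30 tested members 14 were lower and none higher, with a median of -0.21. The count was 8 without control replicate 2. Rrm2, the ribonucleotide reductase subunit that limits deoxynucleotide supply, read 14.0, 15.9 and 13.6 FPKM in control and 10.5, 10.5 and 10.8 on day 3, 1.35-fold lower (limma adjusted p = 0.000588). Lig1, the ligase that joins Okazaki fragments, was 1.30-fold lower. Rrm1, the large subunit of the same reductase, did not pass, at 16.5, 18.8 and 17.0 FPKM against 17.7, 16.1 and 17.3.

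Regulators of G1, a list of both drivers and inhibitors, moved both ways. Of 20 tested members 3 were higher and 8 lower, and the lower count was 4 without control replicate 1, 5 without control replicate 2 and 4 without day 3 replicate 1. E2f7, an atypical E2F repressor, was 1.61-fold lower, and the CDK inhibitor Cdkn2c was 1.41-fold lower (12.5, 13.7 and 13.4 FPKM against 8.69, 9.21 and 9.83). Cdk4, the G1 kinase, was 1.13-fold lower, at 80.4, 82.3 and 79.4 FPKM against 69.1, 69.7 and 72.2. Ccnd2 and Rb1, a D-type cyclin and the retinoblastoma protein, were 1.13-fold and 1.12-fold higher. Ccnd1, the other abundant D-type cyclin, did not pass (79.3, 86.3 and 79.7 FPKM against 77.1, 82.0 and 80.7, limma adjusted p = 0.866).

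Known p53 targets were higher as a group. Of 27 tested members 20 were higher and none lower, against 7.37% higher among all tested genes, with a median of 0.32. Cdkn1a, the CDK inhibitor p21, read 83.0, 85.6 and 88.4 FPKM in control and 136, 137 and 142 on day 3, 1.63-fold higher (95% interval 1.56 to 1.70, limma adjusted p = 9.34e-07). Pmaip1, the pro-apoptotic protein Noxa, was 1.65-fold higher, at 6.04, 6.60 and 6.50 FPKM against 10.5, 9.77 and 11.1. Mdm2, the ligase that degrades p53, was 1.34-fold higher. Perp and Eda2r were each 1.53-fold higher, Ccng1 1.5-fold and Phlda3, an inhibitor of AKT, 1.41-fold. Trp53 itself did not pass, at 34.7, 38.5 and 37.1 FPKM in control and 35.8, 33.3 and 37.3 on day 3 (limma adjusted p = 0.667).

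**Figure D2:**
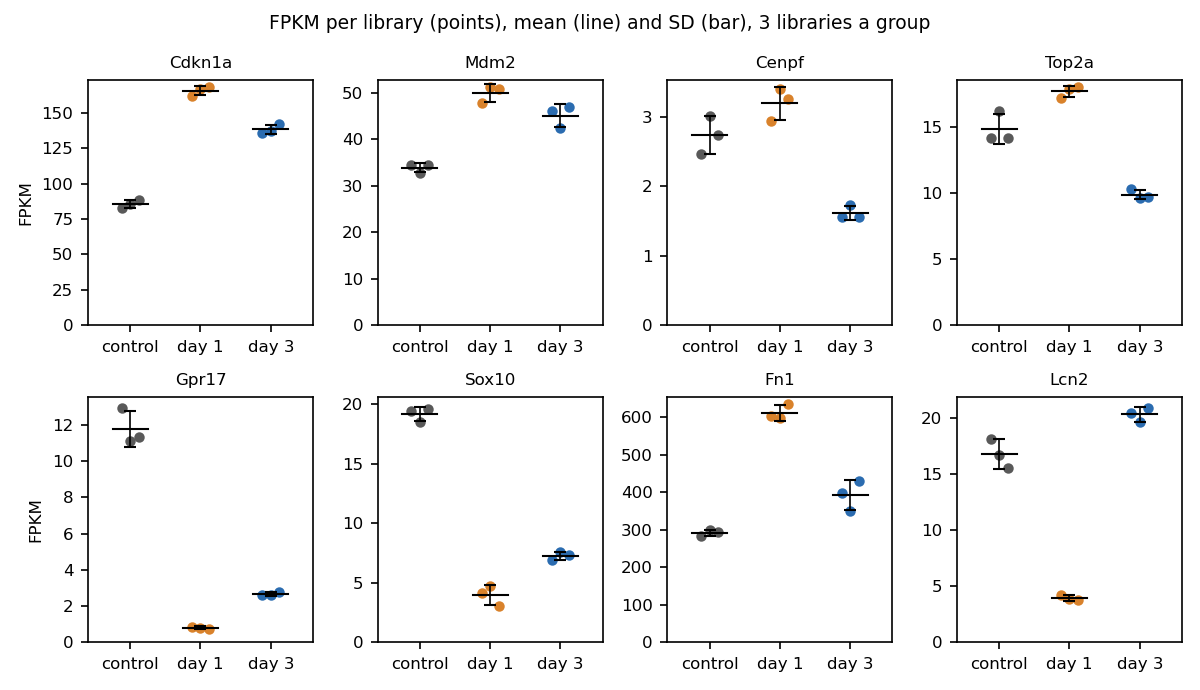
FPKM of 8 genes in each of the 9 libraries (points), with the mean (line) and SD (bar) of the 3 libraries in each group. The day 3 points of Cenpf and Top2a lie below both other groups, those of Gpr17 and Sox10 lie between day 1 and control, and those of Lcn2 lie above both.

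Of 19 tested senescence-associated genes, 8 were higher (42.1%) and 3 lower (15.8%), against 7.37% and 6.45% of all tested genes. The list does not say which way each member moves in senescence, so these counts are not a score of it. Lmnb1, lamin B1, was 1.47-fold lower (14.8, 16.6 and 15.1 FPKM against 9.56, 11.0 and 10.5, limma adjusted p = 0.000418), and Hmgb2, a chromatin protein, 1.45-fold lower. Timp1, an inhibitor of metalloproteinases, was 1.52-fold higher. It read 27.7, 28.8 and 30.6 FPKM in control and 42.6, 41.8 and 46.8 on day 3. Igfbp5 was 1.17-fold lower while Igfbp3 was 1.23-fold higher, both secreted binders of insulin-like growth factors.

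Genes of the oligodendrocyte lineage had the lowest median of the 34 lists. Of 17 tested members 13 were lower and none higher, with a median of -0.80. Gpr17, a receptor of committed precursors, read 12.9, 11.1 and 11.3 FPKM in control and 2.59, 2.61 and 2.80 on day 3, 4.24-fold lower (95% interval 3.72 to 4.83, limma adjusted p = 9.34e-07). Bcas1, of newly forming oligodendrocytes, was 4.15-fold lower, at 13.6, 13.3 and 13.6 FPKM against 2.89, 3.35 and 3.20. Sox10, the lineage transcription factor, was 2.58-fold lower, and Ugt8a, which makes myelin galactolipids, 2.37-fold lower. Olig2, which astrocyte precursors also express, was 1.19-fold lower, and Olig1 did not pass (limma adjusted p = 0.406). The list sum was 699, 710 and 731 FPKM in control, 488, 473 and 451 on day 1, and 578, 612 and 612 on day 3.

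**Figure D3:**
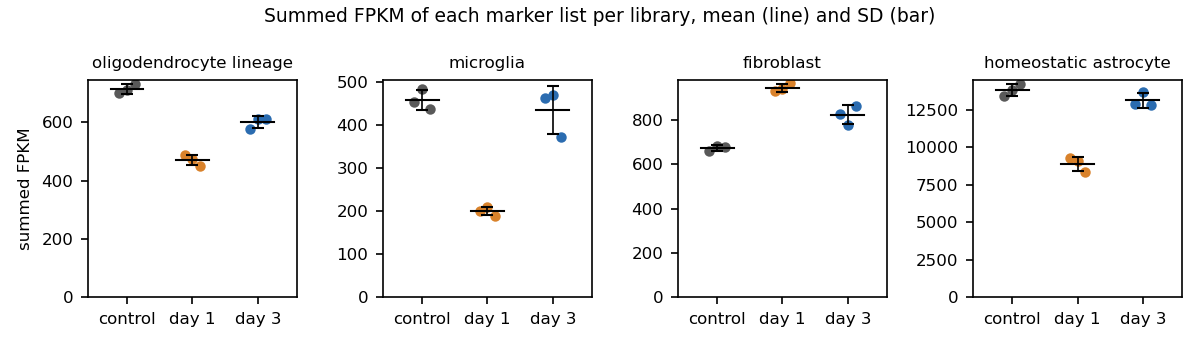
Summed FPKM of 4 marker lists in each library (points), with the mean (line) and SD (bar) of 3 libraries per group. The microglia sum is 438 to 483 in control, 190 to 210 on day 1 and 372 to 470 on day 3.

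Microglial markers, low on day 1, stood near control on day 3. In limma 0 of 21 tested members were called, with 1 at an unadjusted p under 0.05 and 0 by limma-voom, and the median was -0.04. Against day 1, 20 of them were higher on day 3, as were 27.9% of all tested genes. C1qc, a complement subunit made by microglia, read 63.2, 63.6 and 61.0 FPKM in control, 19.9, 20.2 and 19.6 on day 1 and 59.4, 66.0 and 46.1 on day 3. The day 3 and control values overlap, and day 3 replicate 3 was the lowest. Of 5 border macrophage markers 0 were called in limma, 0 had an unadjusted p under 0.05 and 1 was higher by limma-voom.

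Homeostatic astrocyte genes were slightly lower. Of 33 tested members 12 were lower (36.4%, against 6.45% of all tested genes) and 1 higher (3.03%, against 7.37%), with a median of -0.09. The lower count was 5, 7, 6 and 6 without control replicate 1, control replicate 2, day 3 replicate 1 and day 3 replicate 3. S100b, a calcium-binding protein, was 1.24-fold lower (13.7, 15.2 and 14.6 FPKM against 11.3, 11.5 and 11.9). Clu, clusterin, was 1.17-fold lower and Sparcl1, which promotes synapse formation, 1.19-fold lower. Apoe, Mt3 and Cst3, the 3 most abundant members, did not pass. Among neural progenitor genes 11 of 19 were lower (57.9%) and 1 higher (5.26%), against the same background. Their lower count was 6, 5 and 7 without control replicate 3, day 3 replicate 1 and day 3 replicate 3. Fabp7, a fatty acid binder of radial glia, was 1.34-fold lower (394, 424 and 403 FPKM against 303, 316 and 285).

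Of 31 tested reactive astrocyte genes 13 were higher (41.9%, against 7.37%) and 2 lower (6.45%, the share of all genes), with a median of 0.13. Ptgs2, cyclooxygenase 2, was 1.58-fold higher (1.70, 1.87 and 1.72 FPKM against 2.77, 2.58 and 3.09), Hspb1, a small heat shock protein, 1.31-fold, and Cd109 1.30-fold. Lcn2, lipocalin 2, was 1.22-fold higher, at 18.1, 16.7 and 15.5 FPKM against 20.4, 19.6 and 20.9 (limma adjusted p = 0.0116), after 4.21, 3.87 and 3.77 on day 1. Gfap was 1.11-fold lower (limma adjusted p = 0.0327), a call lost on leaving out any control library (adjusted p = 0.0876, 0.0516 and 0.113 for replicates 1, 2 and 3), or on day 3 either replicate 1 (0.0969) or replicate 3 (0.103). Serpina3n, an acute-phase protease inhibitor, was 1.09-fold lower, and its call was lost without day 3 replicate 1 (limma adjusted p = 0.0508), which left 0 lower in the list. Vim did not pass (limma adjusted p = 0.69), nor did C3, the central complement protein, at 93.7, 90.7 and 79.2 FPKM against 71.2, 79.3 and 70.6 (limma adjusted p = 0.113).

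Fibroblast markers were higher in 11 of 15 tested members (73.3%, against 7.37% of all tested genes), none lower, with a median of 0.29. Without day 3 replicate 3 the count was 7. Fn1, fibronectin, was 1.36-fold higher, at 282, 299 and 294 FPKM against 398, 351 and 431. Lum, the proteoglycan lumican, was 1.52-fold higher (3.52, 3.59 and 2.97 FPKM against 4.95, 5.20 and 5.06), and Crabp2, a retinoic acid binder, 1.41-fold. Their list sum was 659 to 685 FPKM in control and 780 to 866 on day 3. Fn1 alone, at the values above, made up much of that sum and of its rise. The part of the fibroblast list in the matrix results that follow was not tested.

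Collagen chains moved both ways: 16 of 30 tested were higher (53.3%) and 10 lower (33.3%), against 7.37% and 6.45% of all tested genes. Col1a1, a fibrillar chain, read 374, 389 and 414 FPKM in control and 496, 439 and 568 on day 3, 1.28-fold higher (limma adjusted p = 0.0105). Col6a3 and Col7a1, of beaded and anchoring fibrils, were 1.47-fold and 1.43-fold higher. The cartilage-type chains Col11a2, Col9a1 and Col11a1 were 2.46-fold, 2.04-fold and 1.51-fold lower, and Col20a1 2.86-fold lower. Col11a2 read 8.68, 9.10 and 9.59 FPKM in control and 3.59, 3.58 and 3.64 on day 3. Collagen enzymes were higher in 10 of 24 (41.7%) and lower in none. The count was 5, 4, 6, 5 and 4 without control replicates 1, 2 and 3, day 3 replicate 1 and day 3 replicate 3. Lox, the crosslinking lysyl oxidase, was 1.42-fold higher, Loxl2 1.30-fold and the lysyl hydroxylase Plod2 1.23-fold. Of 22 TGF-beta pathway genes 12 were higher (54.5%) and 1 lower (4.55%, under the 6.45% of all tested genes). Those higher included Fst, follistatin, 1.59-fold, Inhba, an activin subunit, 1.41-fold, and Ccn2, connective tissue growth factor, 1.18-fold.

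Mural and smooth muscle markers counted 3 higher (33.3%) and 2 lower (22.2%) of 9 tested, against 7.37% and 6.45% of all tested genes. Their median was 0.14, and 5 were higher without day 3 replicate 2. Acta2, smooth muscle actin, read 463, 481 and 493 FPKM in control, 981, 977 and 1030 on day 1 and 405, 375 and 435 on day 3, 1.17-fold lower than control (limma adjusted p = 0.00942). Cnn1, calponin, was 1.31-fold lower. Mcam, Anpep and Notch3 were 1.24-fold, 1.28-fold and 1.20-fold higher. The other 4 tested members did not pass, and 5 of the list's 14 fell below the filter.

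Of 29 NRF2 and glutathione genes 11 were higher (37.9%, against 7.37% of all tested genes) and none lower, with a median of 0.07. Higher members numbered 7 without control replicate 3 and without day 3 replicate 1. Slc7a11, the cystine importer, was 1.37-fold higher (3.10, 2.76 and 2.73 FPKM against 4.09, 3.48 and 4.18). G6pdx, which supplies NADPH, was 1.24-fold higher, Srxn1, which repairs peroxiredoxins, 1.20-fold, and Nfe2l2, NRF2 itself, 1.19-fold. Nqo1, a classical NRF2 target, did not pass (limma adjusted p = 0.35). Hmox1, heme oxygenase 1, was 1.17-fold higher (limma adjusted p = 0.0309), a call lost without control replicate 1 (adjusted p = 0.103), control replicate 3 (0.0684) or any day 3 replicate (0.0734, 0.0504 and 0.102). Peroxide and superoxide removal genes were higher in 3 of 16 (18.8%) and lower in none, with a median of 0.04. Only 1 was higher without day 3 replicate 3. In this list Cat, catalase, was 1.08-fold higher. That call did not hold when day 3 replicate 1 (limma adjusted p = 0.0535) or replicate 3 (0.0519) was removed. Lysosomal genes were higher in 8 of 29 (27.6%) and lower in none, with Ctsk 1.28-fold, Scarb2 1.14-fold and Asah1 1.13-fold higher.

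Chemokine, cytokine and NF-kappaB genes were higher in 5 of 16 tested members (31.2%, against 7.37% of all tested genes) and lower in none. The count was 3 without control replicate 3 or any 1 day 3 replicate. Il33, an alarmin, was 1.30-fold higher (3.89, 3.89 and 3.73 FPKM against 5.07, 4.49 and 5.42), and Icam1, an adhesion molecule, 1.26-fold. Tap1, the peptide transporter of antigen presentation, was 1.25-fold higher and Ifitm3, an interferon-induced membrane protein, 1.16-fold. Complement counted 2 higher (11.8%) and 1 lower (5.88%) of 17, and interferon and MHC class I genes 2 and 2 of 19 (10.5% each), beside 7.37% and 6.45% of all tested genes. Glycolysis and hypoxia genes counted 1 lower of 18.

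In the remaining lists, higher and lower counts were 2 and 0 of 13 for ER folding, and 4 and 1 of 14 for the ATF4 program. The ATF4 count higher was 2 without control replicate 1, 2 without day 3 replicate 1 and 1 without day 3 replicate 3. Cholesterol synthesis counted 3 and 3 of 22, with 1 higher without control replicate 2, control replicate 3 or day 3 replicate 3, and 1 lower without control replicate 1 or day 3 replicate 1. BMP and Id genes counted 2 and 3 of 18, with 1 lower without control replicate 1 or 3, 5 without day 3 replicate 2 and 0 without day 3 replicate 3. Immediate early genes counted 5 and 1 of 18, with 3 higher without control replicate 2 and 1 without control replicate 3 or day 3 replicate 3. Fosl2, an AP-1 subunit, was 1.21-fold higher and Myc 1.19-fold lower. Clock genes counted 1 and 2 of 15, with Bhlhe40, a clock repressor, 1.11-fold higher. Homologous recombination and Fanconi genes counted 0 and 2 of 8, with all 8 differences negative and a median of -0.34. Of these, 7 were lower at an unadjusted p under 0.05 in limma, and 6 were called lower by limma-voom. Ependymal genes counted 0 and 1 of 11 (3 without day 3 replicate 2), and choroid plexus 0 and 0 of 4 (4 at an unadjusted p under 0.05). Endothelial genes counted 3 and 0 of 4 (75.0% higher), and neuron 2 and 1 of 4. The background of these counts is again 7.37% higher and 6.45% lower. Counts of 1 or 2 in these lists ran from 0 to 3 with 1 library left out. Cdh5, an endothelial cadherin, was 1.22-fold higher, and Dlx2, an interneuron factor, was 1.51-fold lower.

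Outside the lists, the largest rises among genes apart between groups were in low-level genes. Wnt2, a secreted Wnt ligand, was 2.01-fold higher (1.30, 1.18 and 0.991 FPKM against 2.45, 2.21 and 2.52). Svop was 1.97-fold higher, Medag 1.68-fold, Vnn1, a pantetheinase, 1.66-fold, Lrrc32 and Spock3 each 1.63-fold, Cd80 1.61-fold, Ano3 1.59-fold and Hmga2, a chromatin protein of proliferating progenitors, 1.56-fold. Falls outside the lists included Slc1a1, a neuronal-type glutamate transporter, 2.88-fold lower (9.89, 10.5 and 10.2 FPKM against 3.24, 3.58 and 3.50). Gjc3, a connexin, and Plxnb3, a plexin, were each 2.58-fold lower, Ccno 2.22-fold, Igsf21 2.14-fold, Omg, a myelin glycoprotein, 2.07-fold and Ttc9b 2.05-fold. The short entry Snord8, a small nucleolar RNA, was 5.71-fold lower, at 2.00, 1.58 and 3.21 FPKM against 0.331, 0.276 and 0.275. For so short an entry these values rest on very few reads, those of day 3 near the floor. The size of this fall is therefore uncertain.

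Many of these genes differed between the days. Against control, mitosis genes had a median of 0.25 on day 1 and -0.47 on day 3, and 39 of 41 were lower on day 3 than on day 1, as were 28.4% of all tested genes. Among p53 targets the medians were 0.52 and 0.32, and 18 of 27 were lower on day 3 than on day 1, against the same 28.4%. Day 1 and day 3 share the control libraries, so these values are given side by side. Over all tested genes, 76 were higher on day 1 and lower on day 3 against control, and 85 were lower on day 1 and higher on day 3.

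**Figure D4:**
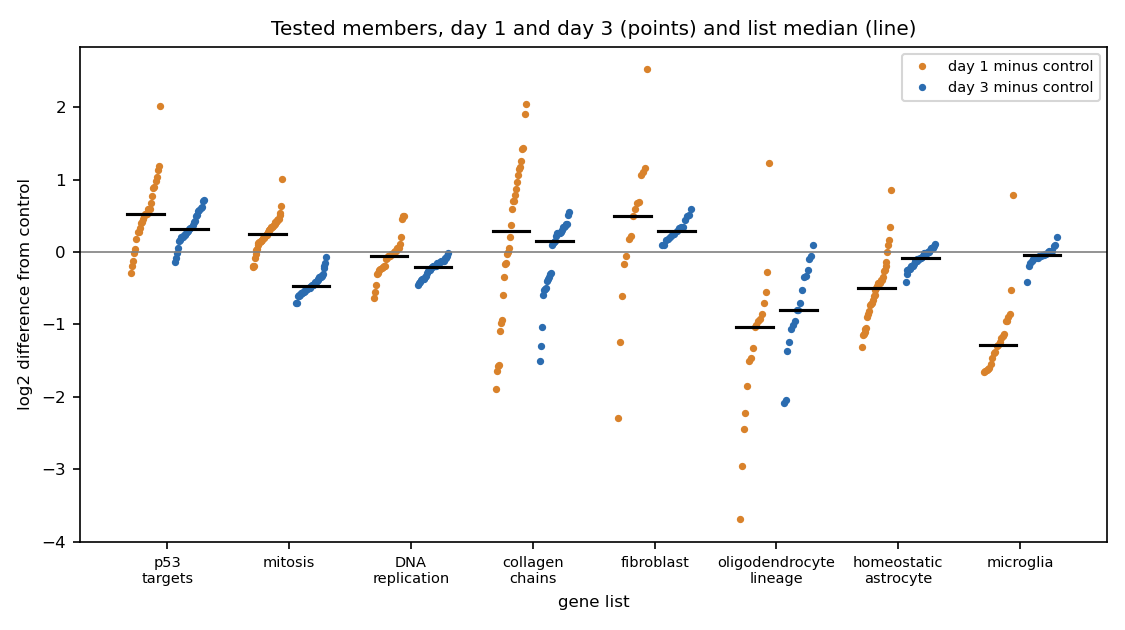
Log2 difference from control of each tested member of 8 gene lists on day 1 (orange) and day 3 (blue), with the list median as a line. The mitosis median is 0.25 on day 1 and -0.47 on day 3, and the microglia median is -1.29 on day 1 and -0.04 on day 3.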

How the data were processed

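The authors deposited 1 table of FPKM, reads scaled for gene length and library size, per library and not pooled. The submitters' processing notes name STAR 2.7.3a, cutadapt 2.6, FastQC 0.12.1 and DESeq2, and the builds mm10 and GRCm38. For the counter and annotation, the sources used here name none. Whole reads were recovered from the deposited FPKM. FPKM were rescaled by median-of-ratios factors, taken as log2(FPKM + 0.1), and fitted with limma 3.58.1 (R 4.3.3) over all 9 libraries, with a term for group alone, an intensity trend and two-sided tests. Called means a Benjamini-Hochberg adjusted p under 0.05. Fold changes are on this scale, which understates changes of low genes.

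The 34 lists (734 genes) and the comparisons were chosen with earlier results of these data known. The text names the 15 largest rises and falls, up to 4 risen and 4 fallen and the 3 most abundant members of each list, and 16 fixed genes, limited to members whose call held in every alternative at the 0.05 threshold that tested them, apart from the fixed genes, a limit set after the results were seen. Some genes that the rule names are left out. The fit was tested on simulated data with dispersion estimated from the replicates. It called 17 of 50 genes changed by 0.25 on the log2 scale, 38 of 50 changed by 0.5, and 6 of 12411 unchanged genes. A gene that did not pass may therefore still have changed by a small amount. Promoter sequences are RefSeq's. Alternatives covered the pseudocount, filter, scaling, libraries, replicate block, variance trend, threshold, limma-voom on recovered reads and each library left out.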

Additional observations from a re-analysis of the deposited data

Results flagged for a closer look

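The genes below were called in opposite directions from control on day 1 and day 3 in limma with Benjamini-Hochberg adjustment. Both calls use the same control libraries. Day 3 also differed from day 1 for each, which this choice of genes nearly ensures and which adds no support. Values are log2 differences of day 3 minus day 1. Genes of division that were higher on day 1 and lower on day 3 than control were Rrm2 -0.63, Cenpf -0.96, Top2a -0.85, Ube2c -0.81, Ect2 -0.94 and Cdk4 -0.34. Smooth muscle genes of this direction were Acta2 -1.32 and Cnn1 -1.0. Other genes of this direction were Tgfb2 -0.69, Psat1 -0.21 and Mvk -0.28, whose calls against control were lost in at least 1 alternative, as was that of Fth1. The opposite order, lower on day 1 and higher on day 3 than control, was seen for Lcn2 2.32, Lum 1.21, Ltbp3 0.37, Slc7a11 0.86, Fth1 0.49, Ifitm3 0.48 and Icam1 0.46.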

How the results depend on the processing

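No named value reversed under the 21 alternatives, and 109 of 169 called genes that the naming rule covers passed in every alternative in which they were tested except the stricter threshold. The filter at 5 FPKM tested 114 of the 169. At an adjusted p under 0.01, 411 genes were higher and 340 lower, 6 DNA replication members were lower and 5 fibroblast members higher. With a mean of at least 5 FPKM, 9 DNA replication, 16 mitosis and 4 collagen members were lower, since fewer genes were tested. Rn45s, a ribosomal RNA entry, held 9.41% to 11.86% of reads in control libraries and 9.15% to 11.1% on day 3. An alternative chosen after seeing the data left out the 2 libraries highest in it, control replicate 1 and day 3 replicate 2. It gave 680 genes higher and 636 lower, with 9 DNA replication members lower. Leaving out 1 library gave 534 to 921 genes higher and 464 to 855 lower, and 6385 to 7041 for day 3 against day 1. The same step gave 19 to 20 p53 targets higher, 8 to 15 DNA replication and 32 to 37 mitosis members lower, 13 to 15 oligodendrocyte members lower, 7 to 12 fibroblast members higher, and 14 to 16 collagen chains higher with 8 to 10 lower. Of 420 values of other list counts, 76 moved by over 1.5 times. Departures from the group mean correlated at -0.0412, 0.0409 and 0.0781 between same-numbered control and day 3 libraries. Between differently numbered ones they ran from -0.149 to 0.0969. With 3 libraries to each mean, these values cannot decide whether the numbers pair the samples, and the labels do not say. The replicate block gave 969 genes higher, 838 lower and 7167 for day 3 against day 1.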
